A study of Mus musculus with 6 samples.

Results

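The genes described here are the collagen chains, that is, the protein-coding genes whose symbol is Col, a type number, the letter a and a chain number. The rule used names only, and found 44 of the 30315 genes in the table. RNA-Seq was performed on cultured mouse primary renal tubular epithelial cells (TECs) of the C57BL/6 strain, in 3 libraries from cells transfected with siSox9, the small interfering RNA (siRNA) that targets Sox9, and 3 libraries from cells that received siNC, the control siRNA. Both groups were transfected 12 h before hypoxia/reoxygenation (H/R), with 6 h of hypoxia at 1.0% O2 without glucose and then 18 h of reoxygenation in complete medium, and no library without H/R is part of the comparison. Nothing in the labels says that the libraries of a group came from separate animals or cultures, so the p-values below measure the spread between these libraries only, which may be technical.

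Collagens are proteins in which α chains wind around one another in a helix. Most are secreted, a few are transmembrane, and a secreted chain leaves the cell only as part of a molecule with its partner chains. Fibrillar collagens build the fibrils of the interstitium, whereas type IV collagen forms the network of basement membranes, in which the chains encoded by Col4a1 and Col4a2 form one network and those encoded by Col4a3, Col4a4 and Col4a5 another. SOX9 is best known as the factor that drives the cartilage collagen genes, Col2a1 first among them, in chondrocytes.

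Sox9 itself, the target of the knockdown, was measured at 8.93, 8.61 and 9.07 FPKM in the siSox9 libraries and at 25.7, 26.5 and 25.6 FPKM in the siNC libraries. FPKM is the number of reads on a gene scaled to the length of its exons and to the depth of the library. The length counts every annotated exon, used in these cells or not, so levels of different genes compare only roughly. The siSox9 libraries held 34.2% of the siNC level of Sox9, with a log2 fold change of -1.45 (limma with Benjamini-Hochberg adjustment, adjusted p = 7.03e-06). The totals of reads recovered from the values were 23893197 to 25725743 per library, and for a gene with 1 kb of exons a single read was worth 0.0389 to 0.0419 FPKM. Of 14 tubule markers, 9 averaged 1 FPKM or more, among them the keratins Krt8 and Krt18 and the kidney cadherin Cdh16. Of the 9, only Cdh16 passed an adjusted p under 0.05. It was higher, at 130 FPKM with siSox9 and 101 FPKM with siNC (log2 fold change 0.36, limma, adjusted p = 0.000307). Of the segment markers, the proximal tubule receptor Lrp2 had 2.41 FPKM with siSox9 and 2.13 FPKM with siNC, Aqp1 had 0.244 and 0.211 FPKM, and Slc34a1, Slc12a1, Slc12a3 and Aqp2 lay under 0.1 FPKM on average. Single markers are named here after their values were seen. A single one of 9 fibroblast and pericyte markers measured reached 1 FPKM, and that gene, Acta2 (686 FPKM with siSox9 and 727 FPKM with siNC), made up nearly all of the list's sum of 654 to 744 FPKM.

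The type IV genes lie in pairs that start close to each other on opposite strands, and the stretches between them are shown first because both chains of a pair had log2 fold changes of the same sign. Positions are those of the deposited table, which match GRCm38, and sequences were taken from RefSeq promoter windows of GRCm38.p6. Col4a4 on the - strand and Col4a3 on the + strand are 71 bases apart, at chr1:82586850-82586920, and this interval is printed on the - strand, as read toward Col4a4. Col4a1 on the - strand and Col4a2 on the + strand overlap at their starts by 22 bases, at chr8:11312805-11312826, within the first exon of each, and the overlap is printed on the + strand. Col4a6 on the - strand and Col4a5 on the + strand are 1308 bases apart, and the 216 bases before Col4a5, at chrX:141475169-141475384, are printed on the + strand. Capitals mark the GC box GGGCGG on either strand (CCGCCC on the other).
Col4a4 to Col4a3 interval: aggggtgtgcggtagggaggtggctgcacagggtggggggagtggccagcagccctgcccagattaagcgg
Col4a1 and Col4a2 overlap: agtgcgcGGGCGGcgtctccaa
Col4a5, upstream: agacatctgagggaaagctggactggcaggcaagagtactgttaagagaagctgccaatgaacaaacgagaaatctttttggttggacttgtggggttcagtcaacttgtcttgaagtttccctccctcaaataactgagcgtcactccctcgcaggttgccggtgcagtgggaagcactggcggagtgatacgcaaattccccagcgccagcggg
The short interval between Col4a4 and Col4a3 and the stretch before Col4a5 hold no GC box, and the Col4a1 and Col4a2 overlap holds 1. These stretches differ in length, so their counts do not compare. In equal windows of 300 bases around the start, Col4a5, Col4a6 and Col4a1 held 1 GC box each, Col4a2 held 3 and Col4a4 held 0. No such window was on hand for Col4a3.

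The other 3 upstream stretches shown belong to the chain that rose most, the chain that fell most on the log2(FPKM + 1) scale and a cartilage chain that was not detected. The first is the 250 bases before a RefSeq start of Col27a1, at chr4:63215162-63215411 on the + strand, inside the gene as the deposited table places it. The second is the 250 bases before Col8a1 at chr16:57754738-57754987 on the - strand, and the third the 250 bases before Col9a1 at chr1:24177360-24177609 on the + strand. Capitals mark GC boxes in the first and second, and in the third a match to the SOX consensus, searched on both strands as CAAAG or CAATG directly after any of AA, AT, TA or TT.
Col27a1, upstream: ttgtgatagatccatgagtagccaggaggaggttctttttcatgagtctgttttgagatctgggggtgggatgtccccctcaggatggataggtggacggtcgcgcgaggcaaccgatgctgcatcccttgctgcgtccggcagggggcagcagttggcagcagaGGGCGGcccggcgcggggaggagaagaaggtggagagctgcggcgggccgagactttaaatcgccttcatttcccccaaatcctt
Col8a1, upstream: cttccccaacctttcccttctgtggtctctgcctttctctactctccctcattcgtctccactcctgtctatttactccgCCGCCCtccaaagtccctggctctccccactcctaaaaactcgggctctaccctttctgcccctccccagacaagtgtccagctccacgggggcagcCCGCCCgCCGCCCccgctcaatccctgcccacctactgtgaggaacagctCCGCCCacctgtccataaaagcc
Col9a1, upstream: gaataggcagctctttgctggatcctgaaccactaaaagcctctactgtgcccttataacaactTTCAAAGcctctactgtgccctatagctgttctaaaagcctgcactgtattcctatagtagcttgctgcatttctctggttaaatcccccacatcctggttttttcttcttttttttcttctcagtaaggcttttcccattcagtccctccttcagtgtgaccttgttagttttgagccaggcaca
A window of 300 bases around the start, 250 before it and 50 after, was on hand for 35 of the 44 chains, some with more than 1 start. A SOX match was found in 24.6% of all 32851 windows and in 8 of the 38 collagen windows (21.1%). None of the 14 windows of chains that averaged 1 FPKM or more held one, and all 8 were among the 24 windows of chains under that level. Those 14 windows belong to 13 chains, and Col4a3, Col5a2, Col12a1, Col1a1 and Col2a1 are among the chains without a window. A GC box was found in 35.7% of all windows, in 23 of the 38 collagen windows (60.5%) and in 11 of the 14 windows of the more abundant chains. Neither share was counted over the windows of all genes that averaged 1 FPKM or more. A match is a run of letters and not a site, and its absence says only that these letters are not in this window.

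Most of the collagen RNA of these cells came from basement membrane chains. Of the 44 chains, 17 averaged 1 FPKM or more and 10 of these 10 FPKM or more. A further 14 had a mean of 0.1 to under 1 FPKM, 10 were above 0 but under 0.1 FPKM, and Col9a1, Col13a1 and Col19a1 were listed at 0 in every library. The plot of levels by type shows this spread.

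**Figure D1:**
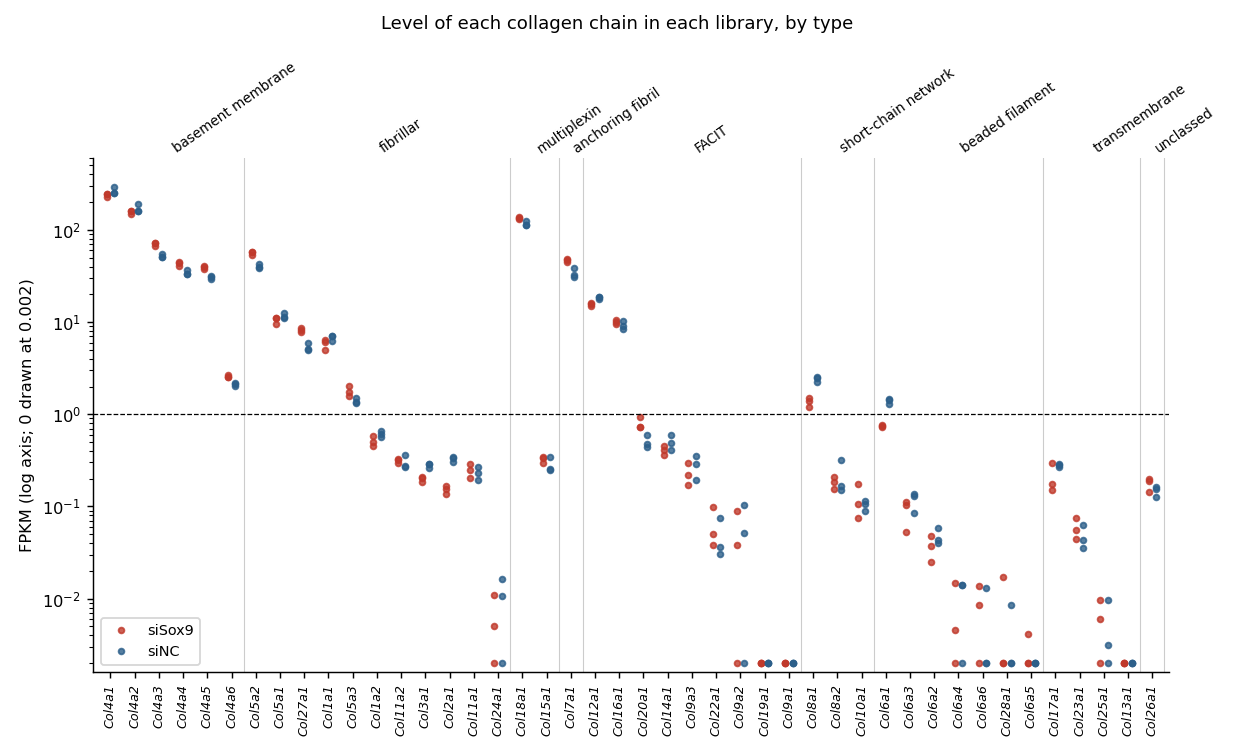
FPKM of each of the 44 collagen chains in each library on a log axis, grouped by type, with red points for the 3 siSox9 and blue points for the 3 siNC libraries; values of 0 are drawn at 0.002, and the dashed line marks 1 FPKM. All 6 basement membrane chains lie above the line, against 5 of the 11 fibrillar chains, and the highest chain is Col4a1 at 230 to 289 FPKM.

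Col4a1, Col4a2, Col18a1, Col4a3 and Col5a2 had the highest means, in that order. The 6 type IV chains made up 66.9% of all collagen FPKM, and Col18a1 and Col15a1, the multiplexins of basement membrane zones, 15.2%. The fibrillar chains came to 9.15%. Among the interstitial chains, those of collagens I and III were low, with Col1a1 at 4.99 to 7.09 FPKM and Col1a2 and Col3a1 under 1 FPKM in every library. The sum over all chains was 871, 869 and 808 FPKM with siSox9 and 875, 768 and 772 FPKM with siNC, so the groups overlapped in their total, with means of 849 ± 35.9 and 805 ± 60.8 FPKM (SD, n = 3 each).

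Sox9 knockdown was followed by changes in both directions among the chains. Limma on log2(FPKM + 1) called 11 of the 17 chains tested at an adjusted p under 0.05, where 30.4% of all 12009 genes tested were called. Of the chains 8 were higher and 3 lower with siSox9, against 12.8% of all genes higher and 17.6% lower. The median log2 fold change of the 17 chains was 0.21, within a range of -0.53 to 0.54, and that of all genes tested was -0.0143. When values were centred on the median of each library, the same counts of 8 and 3 were found, with a median of 0.23, whereas the split of all genes called went from 1532 higher and 2118 lower to 1959 higher and 1765 lower. The 17 are the chains that passed the filter of a mean of 1 FPKM and not all members, and 1 of them, Col6a1, passed only through the siNC libraries. In bulk RNA, a lower level in each cell and a smaller share of the cells that make a transcript cannot be told apart.

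**Figure D2:**
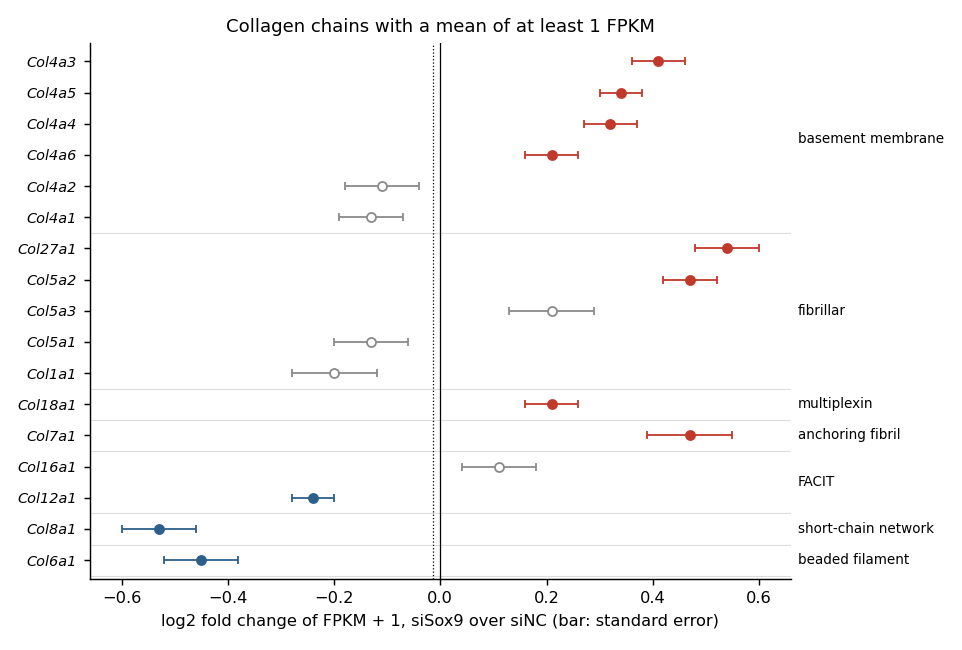
Log2 fold change of FPKM + 1 between siSox9 and siNC (x axis, points) with its standard error (bars) for the 17 chains with a mean of at least 1 FPKM, grouped by type; filled red points are higher and filled blue points lower at limma's adjusted p under 0.05, open points did not pass, and the dotted line is the median of all genes tested. Within the basement membrane and fibrillar types, chains lie on both sides of 0.

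The values of the groups did not overlap for 13 of the 17 chains, 9 higher and 4 lower with siSox9, and they did not overlap for 46.3% of all genes tested. The libraries of a group kept nearly the same order from chain to chain. The siSox9 replicate 3 library was the lowest of its group for all 17 chains, against 39.5% of all genes, and the siNC replicate 1 library was the highest of its group for 16 of the 17, against 40.6%. The values of the 17 chains in a library were thus not independent of one another. Without siSox9 replicate 3 limma called 10 of the 17, and without siNC replicate 1 it called 12.

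The type IV chains did not move together. The pair Col4a1 and Col4a2 did not pass the test, whereas Col4a3, Col4a4, Col4a5 and Col4a6 were all called higher. The contrast between these chains is described by ratios and was not tested. Col4a1 (ENSMUSG00000031502), the most abundant chain, had 246, 247 and 230 FPKM with siSox9 and 289, 249 and 254 FPKM with siNC. Every siSox9 library lay below every siNC library, but the gap to the nearest was small and the log2 fold change of -0.13 did not pass (limma, adjusted p = 0.16). With limma voom, a test on the reads recovered from the values, which called 13.4% of 25759 genes above 0 FPKM, Col4a1 passed as lower (adjusted p = 0.0147), and over the 10479 genes past a 1 FPKM minimum it did not (limma voom, adjusted p = 0.0517). Col4a2 (ENSMUSG00000031503), its partner, had 162, 162 and 148 FPKM with siSox9 and 189, 161 and 159 FPKM with siNC, and the groups overlapped (log2 fold change -0.11, limma, adjusted p = 0.303). Exon bases shared with any other gene made up 0.295% of Col4a1 and 0.982% of Col4a2.

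Col4a3 (ENSMUSG00000079465, chr1:82586921-82722059), whose chain belongs to the network of the mature glomerular and some tubular basement membranes, had 71.3, 72.6 and 66.5 FPKM with siSox9 and 55.1, 50.8 and 51.4 FPKM with siNC. The siSox9 mean was 1.34 times the siNC mean, and the log2 fold change was 0.41 with a standard error of 0.05 (limma, adjusted p = 0.000914). Exon bases shared with the noncoding gene C430014B12Rik make up 5.65% of this gene, and reads on them cannot be told apart without strand. Col4a4 (ENSMUSG00000067158, chr1:82448423-82586849), transcribed away from it across the 71 bases shown above, had 44.9, 43.8 and 40.2 FPKM with siSox9 and 36.4, 33.2 and 33.1 FPKM with siNC. All 3 siSox9 libraries were above all 3 siNC libraries, with a log2 fold change of 0.32 (SE 0.05, limma, adjusted p = 0.0052). Col4a5 (ENSMUSG00000031274, chrX:141475385-141689234), the third chain of that network, had 40.6, 40.1 and 37.5 FPKM with siSox9 and 32.0, 29.7 and 30.9 FPKM with siNC, again without overlap (log2 fold change 0.34, SE 0.04, limma, adjusted p = 0.00135).

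Col4a6 (ENSMUSG00000031273), the neighbour of Col4a5 and the partner of its chain in other basement membranes, was the least abundant type IV chain. It had 2.70, 2.53 and 2.52 FPKM with siSox9 and 2.19, 2.12 and 2.01 FPKM with siNC. The groups did not overlap, and the log2 fold change of 0.21 was past the threshold (limma, adjusted p = 0.024), but the call was lost in 7 of 14 other settings, among them those without siSox9 replicate 1, 2 or 3 and those without siNC replicate 2 or 3, with limma's adjusted p up to 0.0808.

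**Figure D3:**
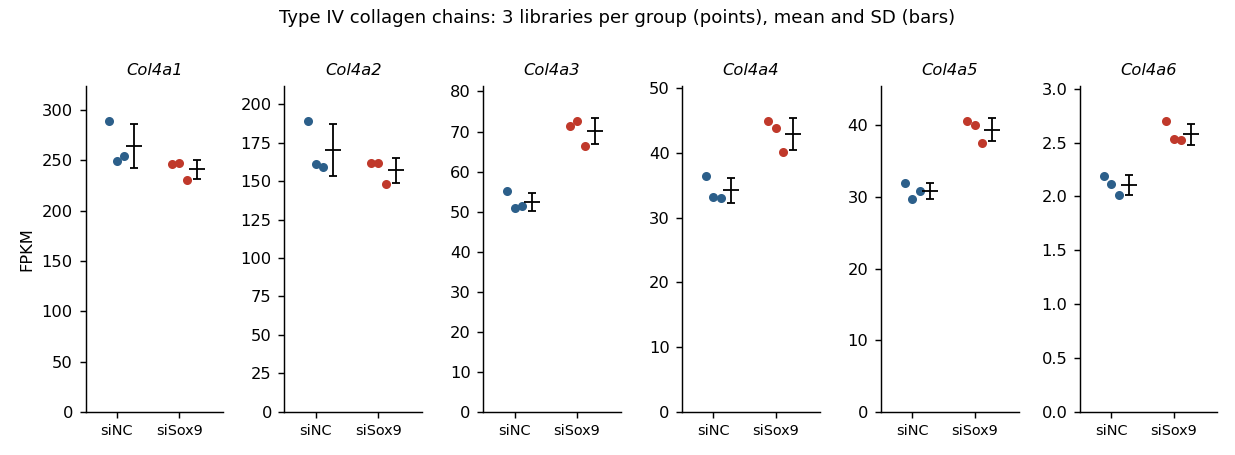
FPKM of the 6 type IV chains (y axis from 0, own scale per panel) in the 3 siNC (blue) and 3 siSox9 (red) libraries, with mean and SD as black bars. The siSox9 libraries lie above all siNC libraries for Col4a3, Col4a4, Col4a5 and Col4a6, below them for Col4a1, and overlap with them for Col4a2.

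Ratios within a library show the division without regard to the scale of the library. They are given as a description, since the pairs were chosen with the values known. The ratio of Col4a3 to Col4a1 was 0.290, 0.294 and 0.289 with siSox9 and 0.191, 0.204 and 0.203 with siNC, 0.291 ± 0.00262 against 0.199 ± 0.0075 (SD, n = 3 each). Between chains of the same network, Col4a1 to Col4a2 ran from 1.51 to 1.60 over all 6 libraries and Col4a5 to Col4a4 from 0.878 to 0.935, each with overlap between the groups. Col4a3 lay higher relative to its partners with siSox9, by a smaller margin and without overlap, at 1.59, 1.66 and 1.66 times Col4a4 against 1.51, 1.53 and 1.55 times with siNC, and at 1.76 to 1.81 times Col4a5 against 1.66 to 1.72 times. The share of Col4a1 and Col4a2 in all collagen FPKM was 46.9% with siSox9 and 53.8% with siNC, and that of Col4a3, Col4a4 and Col4a5 was 18.0% and 14.6%. The sum over the 6 type IV chains was 553 ± 24.9 FPKM with siSox9 and 553 ± 44.1 FPKM with siNC, so their total did not separate the groups.

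**Figure D4:**
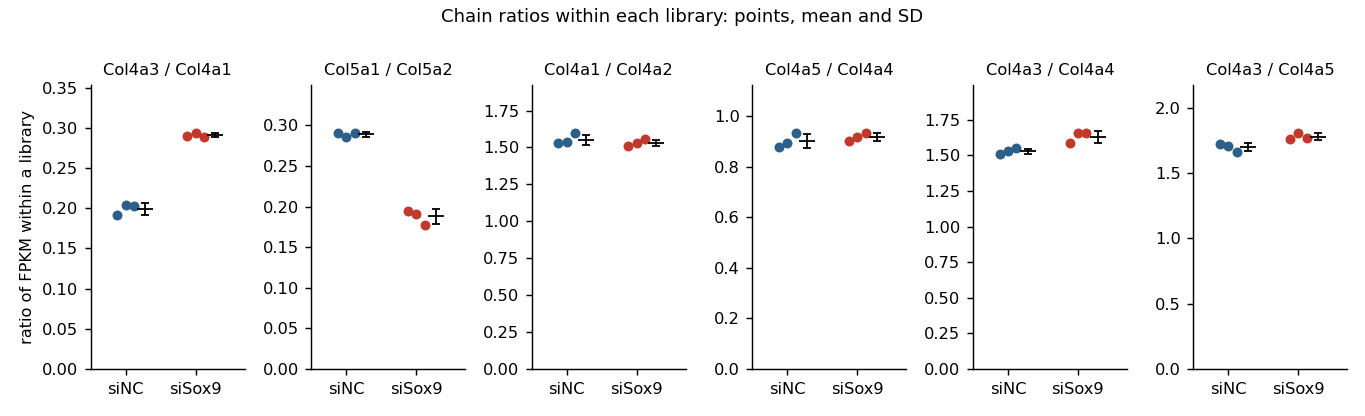
Ratios of FPKM between pairs of chains within each library (y axis from 0, own scale per panel), with points for the 3 siNC (blue) and 3 siSox9 (red) libraries and black bars for mean and SD. Col4a3 to Col4a1 lies higher and Col5a1 to Col5a2 lower with siSox9, without overlap, Col4a3 to Col4a4 and Col4a3 to Col4a5 lie higher by less, also without overlap, and Col4a1 to Col4a2 and Col4a5 to Col4a4 overlap between the groups.

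Podocytes also make the network of Col4a3, Col4a4 and Col4a5. Of the podocyte markers, Nphs1 was at 0 in every library. Podxl had 7.48 ± 0.346 FPKM with siSox9 and 11.6 ± 0.159 FPKM with siNC, and Synpo had 5.18 ± 0.431 and 6.79 ± 0.312 FPKM (SD, n = 3 each), and both were called lower. The part of podocytes in the values of these chains was not tested. These genes were named after their values were seen.

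Of the 11 fibrillar chains, 5 were tested, of which 2 were called higher and none lower (40.0% called, against 30.4% of all genes). Col27a1 (ENSMUSG00000045672, chr4:63214004-63334991), a fibrillar chain of cartilage and other epithelial and mesenchymal tissues, showed the largest rise of any chain tested. It had 8.54, 8.19 and 7.86 FPKM with siSox9 and 5.89, 5.14 and 5.01 FPKM with siNC, 1.53 times the siNC mean and without overlap (log2 fold change 0.54, SE 0.06, limma, adjusted p = 0.000927). Its upstream stretch is printed above and holds 1 GC box. Col5a2 (ENSMUSG00000026042, chr1:45374321-45503282), a chain of type V collagen, which regulates the diameter of fibrils, had 57.5, 57.3 and 54.1 FPKM with siSox9 and 42.9, 39.2 and 38.8 FPKM with siNC. It was by far the most abundant fibrillar chain, and its log2 fold change was 0.47 (SE 0.05, limma, adjusted p = 0.000556).

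The partners of Col5a2 in type V collagen did not follow it past the test. Col5a1 had 11.2, 11 and 9.60 FPKM with siSox9 and 12.5, 11.2 and 11.3 FPKM with siNC (log2 fold change -0.13, limma, adjusted p = 0.183), with overlap between the groups. Col5a3 had 2.02, 1.76 and 1.56 FPKM against 1.51, 1.34 and 1.36 FPKM, and lay higher in every siSox9 library without passing (log2 fold change 0.21, limma, adjusted p = 0.086). The ratio of Col5a1 to Col5a2 was 0.188 ± 0.00928 with siSox9 and 0.289 ± 0.00303 with siNC (SD, n = 3 each). These chains can join in a type V molecule, and here their levels were several-fold apart in every library.

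The chains of interstitial collagens I and III were low. Col1a1 had 6.34, 6.03 and 4.99 FPKM with siSox9 and 7.09, 6.20 and 7.03 FPKM with siNC, overlapping groups with a log2 fold change of -0.20 (limma, adjusted p = 0.118). It passed with limma voom over the genes past the 1 FPKM minimum (adjusted p = 0.0322) and not over all 25759 genes (limma voom, adjusted p = 0.0515). Col1a2, the partner of Col1a1 in type I collagen, was at 0.588, 0.501 and 0.455 FPKM with siSox9 and 0.567, 0.607 and 0.661 FPKM with siNC. In FPKM, Col1a1 was 10.2 to 12.5 times as high as Col1a2 in every library. Part of that ratio is exon length, 6563 bases for Col1a1 and 12426 for Col1a2. In siSox9 replicate 1 they had 1071 and 188 reads. Col3a1 had 47, 51 and 49 reads in the siSox9 libraries and 70, 62 and 71 reads in the siNC libraries. The groups did not overlap for Col3a1, but among all 28122 genes above 0 FPKM, of which limma called 9.6%, its log2 fold change of -0.09 did not pass (limma, adjusted p = 0.126). Neither did it pass with limma voom over the 25759 genes (log2 fold change -0.48, adjusted p = 0.125).

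Of the 8 chains listed as cartilage collagens, only Col27a1 reached 1 FPKM. Col2a1, the main collagen of cartilage, was at 0.168, 0.138 and 0.153 FPKM with siSox9 and at 0.302, 0.338 and 0.342 FPKM with siNC. The siSox9 mean was 46.8% of the siNC mean, without overlap, and in the fit over all 28122 genes the log2 fold change on the compressed FPKM + 1 scale was -0.20 (limma, adjusted p = 0.0149). The fall did not pass in 3 of 12 other settings of that fit, with limma's adjusted p up to 0.0832, and its values did not come out as whole reads, so that it could not be tested on reads. Col11a1 was at 0.247 and 0.230 FPKM, Col11a2 at 0.314 and 0.303 FPKM, Col9a3 at 0.228 and 0.280 FPKM and Col10a1 at 0.119 and 0.104 FPKM with siSox9 and siNC, and each overlapped between the groups. Col9a2 was at 0 in 1 library of each group and at 0.104 FPKM at most, and Col9a1 was listed at 0 throughout.

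Col7a1 (ENSMUSG00000025650, chr9:108953586-108984875), the chain of the anchoring fibrils that tie epithelial basement membranes to the tissue beneath, had 47.4, 48.8 and 44.5 FPKM with siSox9 and 38.6, 32.1 and 30.7 FPKM with siNC. It rose without overlap, by 0.47 on the log2 scale (SE 0.08, limma, adjusted p = 0.00598). Col18a1 (ENSMUSG00000001435, chr10:77052178-77166548), the basement membrane chain from which endostatin is cut, had 137, 136 and 130 FPKM with siSox9 and 125, 112 and 113 FPKM with siNC. Its groups did not overlap either, and the smaller log2 fold change of 0.21 passed (limma, adjusted p = 0.0162). The call for Col18a1 was lost in 5 of 15 other settings, among them those without siSox9 replicate 1 or 2 and without siNC replicate 2 or 3, with limma's adjusted p up to 0.0615.

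The 3 chains that fell belong to other types. Col8a1 (ENSMUSG00000068196, chr16:57624258-57754737), a short-chain network collagen made by endothelium and other cells, had 1.51, 1.40 and 1.19 FPKM with siSox9 and 2.45, 2.25 and 2.52 FPKM with siNC. The siSox9 mean was 56.8% of the siNC mean and the log2 fold change -0.53 (SE 0.07, limma, adjusted p = 0.00205), the largest fall of a chain tested on this scale, whereas with a pseudocount of 0.1 Col6a1 fell by 0.82 and Col8a1 by 0.78 on the log2 scale. Its upstream stretch, printed above, holds 4 GC boxes. Col6a1 (ENSMUSG00000001119, chr10:76708792-76726168), a chain of the beaded filaments of type VI collagen, had 0.763, 0.746 and 0.726 FPKM with siSox9 and 1.46, 1.44 and 1.28 FPKM with siNC. These levels rested on 76 to 86 reads with siSox9 and 139 to 159 reads with siNC, and the log2 fold change was -0.45 (limma, adjusted p = 0.00316). Because Col6a1 passed the filter through the siNC libraries, it is counted among the chains called with that limit. Its partner Col6a2 was at 0.0580 FPKM or less in every library and Col6a3 at 0.135 FPKM or less.

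Col12a1 (ENSMUSG00000032332, chr9:79598991-79718831), a FACIT collagen, which sits on the surface of fibrils, had 15.6, 16.1 and 14.8 FPKM with siSox9 and 18.9, 17.9 and 18.9 FPKM with siNC. It fell by 0.24 on the log2 scale (SE 0.04, limma, adjusted p = 0.0047), with no overlap. Col16a1, the other FACIT chain tested, had 10.1 ± 0.514 FPKM with siSox9 and 9.30 ± 0.996 FPKM with siNC (SD, n = 3 each) and did not pass (log2 fold change 0.11, limma, adjusted p = 0.307). Col20a1, under the filter, lay higher in every siSox9 library, at 0.927, 0.733 and 0.729 FPKM against 0.596, 0.444 and 0.480 FPKM, without passing in the fit over all genes (limma, adjusted p = 0.102). Of the 27 chains under the filter, Col20a1 lay higher and Col2a1 and Col3a1 lower without overlap, and the other 24 overlapped or were at 0. The share of all genes under the filter without overlap was not counted, so no result is drawn from these counts.

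Other cell types were looked at through their markers for the chains that fell. The endothelial list, of which 1 of 6 markers reached 1 FPKM, summed to 3.06 to 3.30 FPKM with siSox9 and 3.35 to 4.34 FPKM with siNC, the same direction as Col8a1. Its markers went both ways. Cdh5 alone of this list was past the filter, at 1.16 FPKM with siSox9 and 1.37 FPKM with siNC, and was not called. Emcn, under it, was at 61.4% of the siNC level without overlap and passed as lower in the fit over all 28122 genes (limma, adjusted p = 0.0331). Pecam1 was lower without overlap, at 0.57 and 0.677 FPKM, and did not pass there. Kdr (0.509 and 0.418 FPKM), Tek (0.122 and 0.0889 FPKM) and Tie1 (0.186 and 0.17 FPKM) had higher means with siSox9, with overlap. The fibroblast and pericyte list summed to 654 to 707 FPKM with siSox9 and 704 to 744 FPKM with siNC, nearly all of it Acta2. Thy1 (0.28 and 0.48 FPKM) and Pdgfrb (0.591 and 0.763 FPKM) were lower with siSox9 without overlap. Neither passed in the fit over all 28122 genes (limma, adjusted p = 0.0788 and 0.304). Postn (0.579 and 0.642 FPKM) and Pdgfra (0.233 and 0.227 FPKM) overlapped. Another 4 of its 9 genes in the table, Dcn, Gli1, Meox1 and Tcf21, were under 0.1 FPKM on average. Of these, Gli1 was higher without overlap, at 0.0184 FPKM with siSox9 and 0 with siNC. The leukocyte list summed to 103 to 114 FPKM with siSox9 and 92.2 to 98.7 FPKM with siNC. Most of it was Lyz2, which was called higher at 83.4 against 71.9 FPKM (limma, adjusted p = 0.0175). Cd68 had 11.8 FPKM with siSox9 and 10.9 FPKM with siNC, and Adgre1 2.43 and 2.22 FPKM, with overlap and without a call. Csf1r had 9.38 and 9.66 FPKM and Ptprc 0.653 and 0.724 FPKM, also with overlap, and Cd3e was near 0. The part of these cells in the values of the chains was not tested.

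The siRNA strand itself can lower transcripts that match its seed. The 3′ UTR of Col6a1 and that of Col4a4 each hold 1 match of 7 bases to the seed, bases 2 to 8, of the antisense strand of siSox9, and the other 9 chains called hold none. Col6a1 was lower and Col4a4 higher with siSox9. Over all genes tested with a 3′ UTR, 7.68% held a match, among those called lower 15.2% and among those called higher 3.86%. The part of such matches in the values of Col6a1 was not tested.

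Genes for the proteins that modify, export, process, crosslink, bind or turn over collagen chains, receptors among them, were described by a list of 51. Of these, 48 were in the table and 35 averaged 1 FPKM or more. Limma called 16 of the 35 (45.7%, against 30.4% of all genes), 4 higher and 12 lower, with a median log2 fold change of -0.11; over all genes tested 1532 were higher and 2118 lower, and the difference between these splits was not tested. With values centred on each library's median, 4 were higher and 11 lower, with a median of -0.08.

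The crosslinking enzymes held the largest fall. Pxdn, the peroxidase that forms sulfilimine crosslinks in type IV collagen, had 33.3 ± 1.05 FPKM with siSox9 and 51.3 ± 1.53 FPKM with siNC (SD, n = 3 each), which is a log2 fold change of -0.61 (limma, adjusted p = 0.000102). The lysyl oxidases, which crosslink collagen through lysines, went both ways. Loxl4 had 15.4 ± 0.316 FPKM against 20.9 ± 0.55 FPKM and fell by 0.42, and Loxl1 had 14.3 ± 1.46 FPKM against 19.6 ± 1.67 FPKM and fell by 0.44 on the log2 scale (SD, n = 3 each; limma, adjusted p = 0.000258 and 0.00793). Lox was higher at 45.6 ± 0.377 FPKM against 37.6 ± 3.0 FPKM, with a log2 fold change of 0.27 (SD, n = 3 each; limma, adjusted p = 0.00937). Loxl2 did not pass, and Loxl3 was under the filter.

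Colgalt1, the galactosyltransferase that glycosylates hydroxylysine, had 34.6 ± 1.29 FPKM with siSox9 and 49.6 ± 0.738 FPKM with siNC (SD, n = 3 each), which is a log2 fold change of -0.51 (limma, adjusted p = 0.000144). Of the lysyl hydroxylases Plod1 was called lower and Plod2 higher. The call for Plod1 (log2 fold change -0.18, limma, adjusted p = 0.0165) was lost with TPM (limma, adjusted p = 0.0893) and without siSox9 replicate 1 (0.0566) or siNC replicate 3 (0.0602), and the call for Plod2 (log2 fold change 0.12, limma, adjusted p = 0.0457) was lost in 10 of 15 other settings. In the removal of propeptides, Pcolce, an enhancer of the C-proteinase, fell by 0.41 on the log2 scale (limma, adjusted p = 0.00321), whereas the proteinase Bmp1 rose to 121 ± 4.77 FPKM from 101 ± 5.54 FPKM (SD, n = 3 each; log2 fold change 0.26, limma, adjusted p = 0.00698). Of 9 prolyl hydroxylation genes tested, 2 were lower and none higher (22.2% called, against 30.4% of all genes), and the abundant P4hb did not pass. Serpinh1, the collagen chaperone, at 359 FPKM with siSox9 and 386 FPKM with siNC, did not pass either (limma, adjusted p = 0.0671). Among the receptors, Itgb1, the β1 integrin, rose by a log2 fold change of 0.15 (limma, adjusted p = 0.00988), and this call was lost in 2 of 15 other settings.

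**Figure D5:**
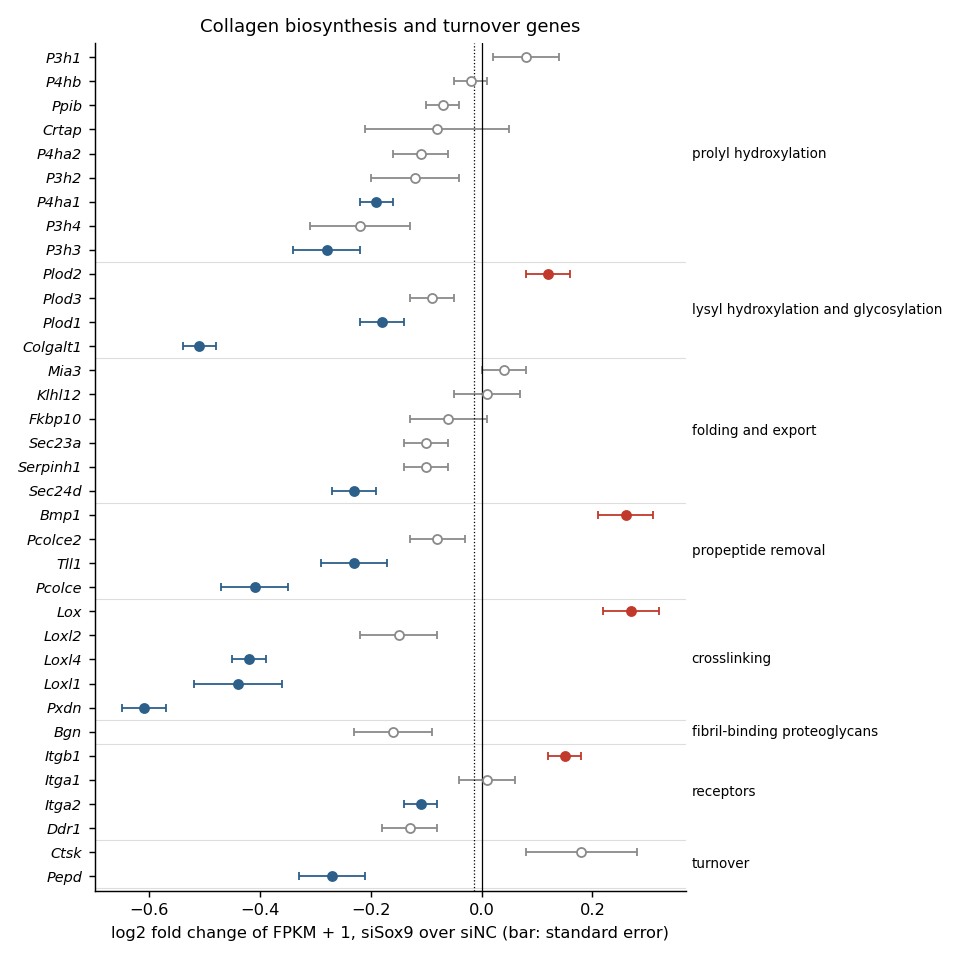
Log2 fold change of FPKM + 1 between siSox9 and siNC (x axis, points) with its standard error (bars) for the 35 genes of collagen biosynthesis and turnover that averaged 1 FPKM or more, grouped by role; filled red points are higher and filled blue points lower at limma's adjusted p under 0.05, open points did not pass, and the dotted line is the median of all genes tested. The 12 lower genes are spread over 7 roles, and Pxdn and Colgalt1 lie farthest to the left.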

How the data were processed

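RNA-Seq was compared between 3 siSox9 and 3 siNC libraries of mouse primary renal TECs after H/R. The deposited values are FPKM, made by the authors for each gene in each library with no further scaling across libraries.  The submitters' processing notes name Bowtie2 2.2.3, HISAT2 2.1.0, TopHat2 and the build mm9, without a role, but 93.312% of the 30246 genes that are in GENCODE M21 had their GRCm38 position there, as did 43 of the 44 chains. The siSox9 columns were assigned as those of the only other siRNA in the labels. Each per-sample column was used (0 unmatched).

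Differences were tested in R 4.3.3 with limma 3.58.1 (lmFit, eBayes with a trend) on log2(FPKM + 1), a scale that understates the change of low genes, over the 12009 genes that averaged 1 FPKM or more, with Benjamini-Hochberg adjusted p under 0.05. The unpaired fit follows the unpaired test of the study's methods. Whole reads were recovered with GENCODE M21 exon lengths, within 0.02 reads, for 27948 genes in all libraries and for 39 chains (not Col20a1, Col11a2, Col2a1, Col8a1 and Col17a1), and tested with limma voom as an alternative. The fit was tested on simulated data. Promoter windows came from RefSeq (GRCm38.p6), and 3′ UTRs were the longest of the protein-coding transcripts of GENCODE M21. All other steps used Python 3.11.15 with pandas 2.3.3, numpy 2.4.6 and matplotlib 3.10.9.

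Genes named are every chain past the threshold, the type IV, interstitial and cartilage chains, the 5 most abundant chains, the 5 largest rises and 5 largest falls of the collagen biosynthesis and turnover list that passed (4 rose), and Sox9, and a few others are named where counts are small. The members and the lists were chosen with earlier results of these data known. Same-numbered libraries did not deviate together (correlations of 0.0649, -0.0504 and 0.00784 between deviations from the group means), so no pairing was used. No library was left out. An item of the marker lists is not reported here.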

Additional observations from a re-analysis of the deposited data

How the results depend on the processing

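The settings tried were a pseudocount of 0.1, no filter, a mean of at least 5 FPKM, TPM, values centred on the library median, quantile normalization, the replicate number as a block, limma without a trend, limma voom on recovered reads, and leaving out each replicate in turn, 15 in all. Of the 11 chains called, 9 passed in the same direction in every setting in which they were tested, and the exceptions were Col18a1 and Col4a6. Chains called ranged from 8 (with the minimum of 5 FPKM, which left 13 chains) to 12, and leaving out 1 replicate gave 9 to 12. Genes of collagen biosynthesis and turnover called ranged from 11 of 48 without the filter to 17, and leaving out 1 replicate gave 13 to 15, against 16. Genes called in all came to 3650, and leaving out 1 replicate gave 2424 (without siSox9 replicate 2) to 3654.

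With the replicate block, 11 chains, 14 genes of collagen biosynthesis and turnover and 3262 genes in all were called. The numbers share no batch in the labels and the libraries did not deviate together by number, so the block is an alternative only.

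Under the filter, the log2 fold changes of 4 cartilage chains that did not pass changed sign. With 1 replicate left out, Col10a1 ranged from -0.02 to 0.05, Col11a1 from -0.00402 to 0.04, Col11a2 from -0.00463 to 0.05 and Col9a2 from -0.05 to 0.02, and Col9a2 came to 0.01 with median-centred values. The cause was not tested. At these depths 3 reads on 1 kb of exons are 0.117 to 0.126 FPKM, so levels near 0.1 FPKM limit what can be seen.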
